A study of Mus musculus with 12 samples.

Results

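The comparison described here sets 3 RNA-Seq libraries of undifferentiated Meteor knockout (KO) ESCs against 3 libraries of wild type (WT) ESCs, all collected on day 0 of differentiation and paired by replicate number. They are 6 of the 12 libraries of the series; the other 6 are the same genotypes on day 3. Members were taken from the sample labels, which name the genotype, the day and the replicate number, and 14601 of the 46517 genes listed in the files had over 1 CPM (the count of a gene scaled by its library's total on genes) in at least 1 of the 6 libraries and were tested. Both genotypes were mouse embryonic stem cells of the EomesEGFP reporter line, in which an EGFP cassette sits at the start of Eomes. They were labelled C57BL/6 and were grown on mouse embryonic fibroblast feeders in standard ESC medium with no differentiation stimulus. The KO cells carried a deletion of the Meteor enhancer, made with a CRISPR-Cas9 nickase and followed by puromycin selection and picking of single clones. The labels give no clone for the 3 KO libraries, so the deletion and whatever else came with the picked cells cannot be told apart. No source used here says that the 3 libraries of a group came from separate cultures, and p-values then measure only the spread between these samples.

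Meteor is an enhancer upstream of Eomes, the T-box gene that starts mesendoderm formation, and it is itself transcribed into a long noncoding RNA. Mouse ESCs correspond to the inner cell mass and early epiblast. In the naive state they are held by LIF signalling and factors such as Nanog, Klf4 and Tfcp2l1, and on the way out they pass through a formative state marked by Otx2, Fgf5 and de novo DNA methyltransferases before streak or neural genes come on. A small fraction of cells in such cultures enters a 2-cell-like state with Zscan4 transcripts.

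The Meteor locus itself was read first. Its annotated transcripts lie on the minus strand of chromosome 9 in GRCm38, the TEC gene 2610509F24Rik at chr9:118402465-118403302 and the lincRNA Platr11 at chr9:118404097-118406099. 2610509F24Rik had 107, 58 and 52 counts in WT replicates 1, 2 and 3 and 0 counts in each KO library. Against a floor of 3 counts over the KO group, its level was at least 72.7-fold lower in KO. Platr11 had 112, 30 and 63 counts in WT and 0, 1 and 1 in KO, or 0.97% of the WT level (95% exact interval 0.117% to 3.55%, counting error only). The genotype labels and the locus therefore matched in all 6 libraries. Eomes, which lies on the plus strand at chr9:118478212-118486132, did not pass the test on day 0, with 61.8, 30.1 and 57.2 CPM in WT and 63.5, 48.0 and 50.5 CPM in KO (log2 fold change 0.17 ± 0.14, adjusted p = 0.39), and its groups overlapped. Without pair 3 it passed, at 0.34 (adjusted p = 0.038).

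The 6 libraries held between 18386391 and 20616286 reads on genes, and between 21148 and 21584 genes had at least 1 read. Levels below are CPM with TMM scaling. Replicates were distinct libraries, since no pair of the same group came near sampling noise (chi-square of 13.7 to 30.5 per gene). Libraries that share a number departed from their group means alike in KO and WT. The correlations were 0.735, 0.537 and 0.58 for numbers 1, 2 and 3 across 10484 genes, and the fit took the number as a block. WT replicate 3 stood apart for primitive streak genes. T, the T-box factor of the streak, was at 74.96 CPM there against 4.50 and 6.21 CPM in the other WT libraries, and Lhx1, a LIM homeobox gene, was at 13.5 against 0.635 and 0.808 CPM. Where leaving out pair 3 changed a call or moved a named gene's fold change by over 1.5 times, the value without it is given.

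Over all tested genes, 5356 passed (edgeR's quasi-likelihood test, Benjamini-Hochberg adjusted p below 0.05), or 36.7%. Of these, 2697 were lower in KO (18.5%) and 2659 were higher (18.2%), and 5332 moved the same way in all 3 pairs. Most of these differences were small. A fold change over 2, that is a log2 fold change over 1 in size, was met by 1667 genes (11.4%), of which 996 were lower (6.82%) and 671 higher (4.6%). The groups did not overlap for 35.3% of tested genes. The median log2 fold change over all tested genes was 0.0025, and the median standard error was 0.117. Values after a ± sign are standard errors of the log2 fold change, derived from the fold change and the test statistic. Without pair 3, 3963 genes passed and 1358 exceeded the fold of 2. Without the replicate block the counts were 2251 and 1155. In fits over all 12 libraries 5447 passed with a block within each day (the within-day fit) and 3201 with 1 block shared by both days (the shared-block fit). The main cases in which an alternative ended a call or moved a count by over 1.5 times are given below.

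The differences were unevenly placed along the genome. On chromosome 11, 507 of 1204 tested genes were lower in KO (42.1%) and 87 higher (7.23%), with a median log2 fold change of -0.25. Chromosome 8 had 240 of 753 genes lower (31.9%) and a median of -0.17. Chromosome X had 157 of 528 lower (29.7%) and a median of -0.12. On the other chromosomes apart from 1 and 14 the median lay between 0.0063 and 0.087, leaving aside the 3 tested genes of chromosome Y and the 12 of the mitochondrial genome.

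Chromosome 1 changed direction part way along. Among genes with a mean of at least 5 CPM, 213 of 310 that start before Actr3 had a lower fitted value in KO, with a median of -0.11, while 253 of the 291 from Actr3 to the end of the chromosome (chr1:125392905-195131586) had a higher one, with a median of 0.40 (quartiles 0.21 and 0.60). The step fell between Ddx18 and Actr3, neighbours in this set. Ddx18, an RNA helicase, had 167, 215 and 205 CPM in WT and 146, 158 and 156 CPM in KO (-0.34 on the log2 scale, adjusted p = 0.005, and 0.065 without the block). Actr3, a subunit of the Arp2/3 actin nucleator, had 282, 279.5 and 282 CPM in WT and 407, 354 and 355 CPM in KO (0.40, adjusted p = 0.0019). Pair by pair the distal median was 0.41, 0.39 and 0.37, a spread far smaller than the step. All 13 bins of 5 Mb beyond the step with at least 5 genes had a median above 0, and all 20 before it had a median below 0.

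The end of chromosome 14 held a stretch of raised genes and, further on, a stretch of lowered ones. Between them lay Tpm3-rs7 (chr14:113314608-113316754), which did not pass. It had 137, 158 and 160 CPM in WT and 155, 158 and 165 CPM in KO (log2 fold change 0.08, adjusted p = 0.38). All 20 genes with at least 5 CPM from Mzt1 to Spry2 (chr14:99034544-105896819) had a higher value in KO, 19 of them past the test, with a median log2 fold change of 1.35 (2.56-fold). All 22 such genes from Mir17hg on (chr14:115042879-122984035) had a lower value, 20 past the test, with a median of -0.95 (0.516 of WT). The 322 genes before Mzt1 had a median of 0.037. The last of these, Tdrd3, had 15.4, 21.2 and 23.6 CPM in WT and 15.2, 22.7 and 20.4 CPM in KO (-0.05). The next, Mzt1, which encodes a small protein of the gamma-tubulin complex, had 81.3, 74.99 and 77.6 CPM in WT and 296, 247 and 299.5 CPM in KO (1.84). The jump thus lay between neighbours in this set. Dis3, an exosome ribonuclease, had 274, 352 and 309 CPM in WT and 1286, 1207 and 1228 CPM in KO (log2 fold change 2.00 ± 0.09, adjusted p = 4.8e-06). Rbm26, an RNA binding protein gene of the same stretch, had 210.1, 234 and 193 CPM in WT and 440.4, 443 and 433 CPM in KO (log2 fold change 1.05 ± 0.07, adjusted p = 2.2e-05). In the lowered stretch, the importin gene Ipo5 had 1084, 1167 and 1171 CPM in WT and 573, 496 and 552 CPM in KO (log2 fold change -1.08 ± 0.08, adjusted p = 3.5e-05), and Tm9sf2, a transmembrane protein of the endosome and Golgi, had 144, 152 and 160.5 CPM in WT and 85.5, 88.2 and 85.7 CPM in KO (log2 fold change -0.82 ± 0.06, adjusted p = 5.3e-05). The exporter gene Abcc4 was lower as well, with 147, 150.4 and 151 CPM in WT and 62.4, 58.2 and 63.7 CPM in KO (log2 fold change -1.28 ± 0.06, adjusted p = 7e-06). Mbnl2 and Slc15a1 were the exceptions that did not pass, at -0.04 and -0.07. Genes at these edges other than Klf5, Dis3, Rbm26, Ipo5, Abcc4 and Tm9sf2, and the stretches themselves, were chosen after their values were seen.

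**Figure D1:**
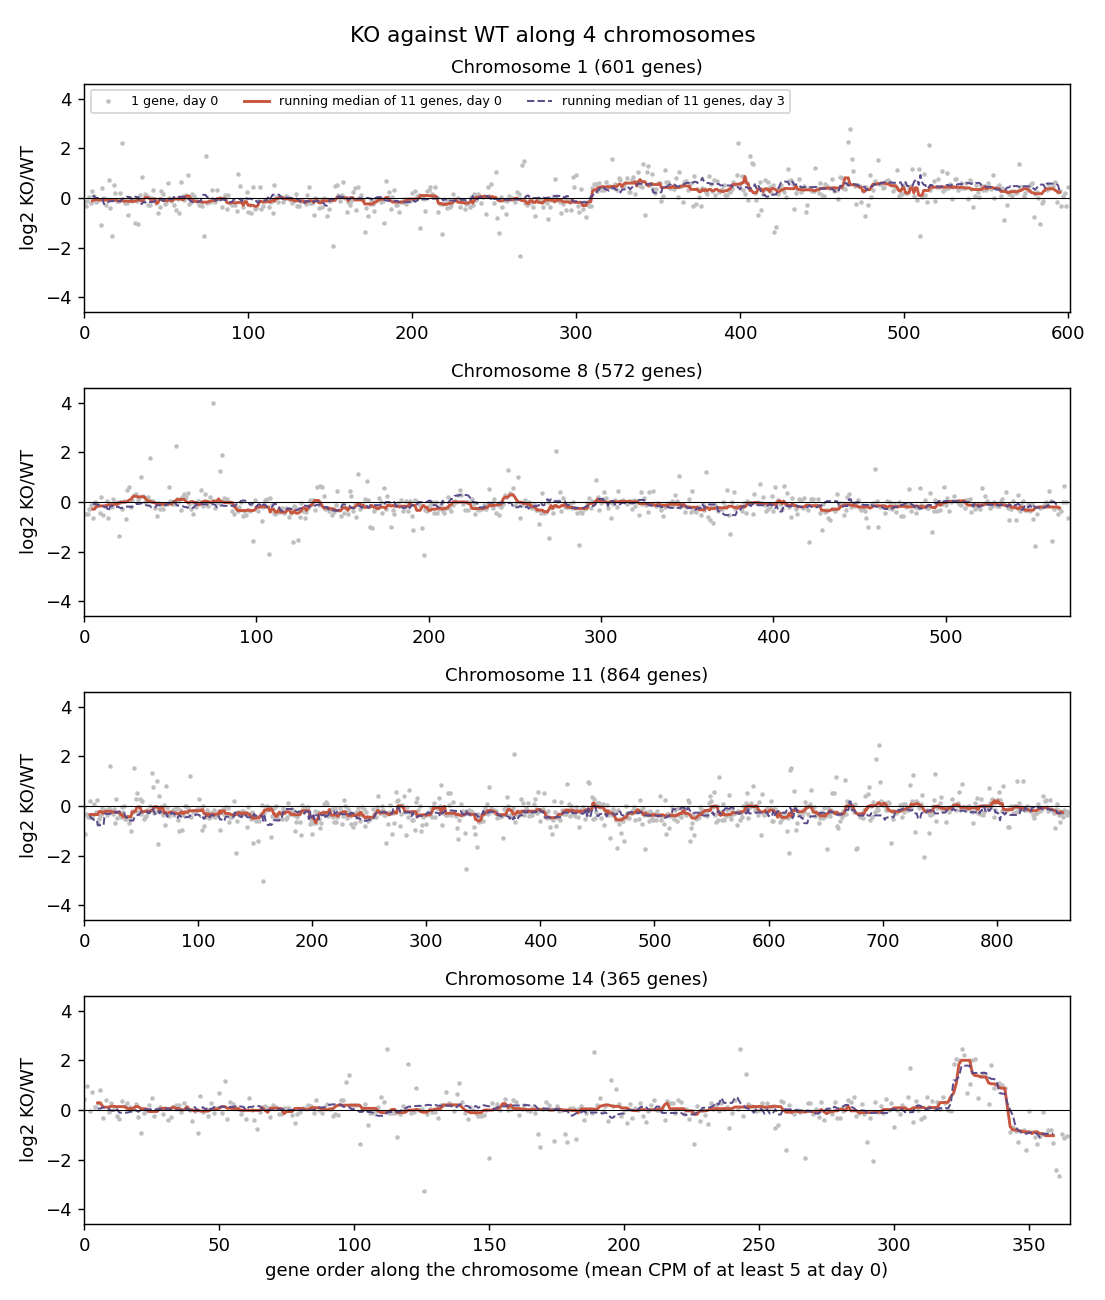
Log2 fold change (KO over WT, vertical axis) of genes with a mean of at least 5 CPM in their order along chromosomes 1, 8, 11 and 14 (horizontal axis). Grey points are single genes on day 0; the solid and dashed lines are running medians over 11 genes on day 0 and day 3. Chromosome 1 steps from below 0 to a median of 0.40, chromosome 11 lies below 0 along its length with a median of -0.24 in this set, and the end of chromosome 14 rises well above 0 and then falls below it, with medians of 1.35 and -0.95 in its 2 stretches.

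The share of counts showed the same stretches in each library. Chromosome 11 took 11.4%, 11.8% and 11.9% of the counts on nuclear chromosomes in WT replicates 1, 2 and 3 and 9.58%, 9.79% and 9.83% in KO. Chromosome 1 from Actr3 on took 3.09%, 3.12% and 3.04% in WT and 4.14%, 4.15% and 4.07% in KO. The raised stretch of chromosome 14 took 0.16%, 0.161% and 0.155% in WT and 0.514%, 0.484% and 0.475% in KO. KO and WT libraries did not overlap for any of them.

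**Figure D2:**
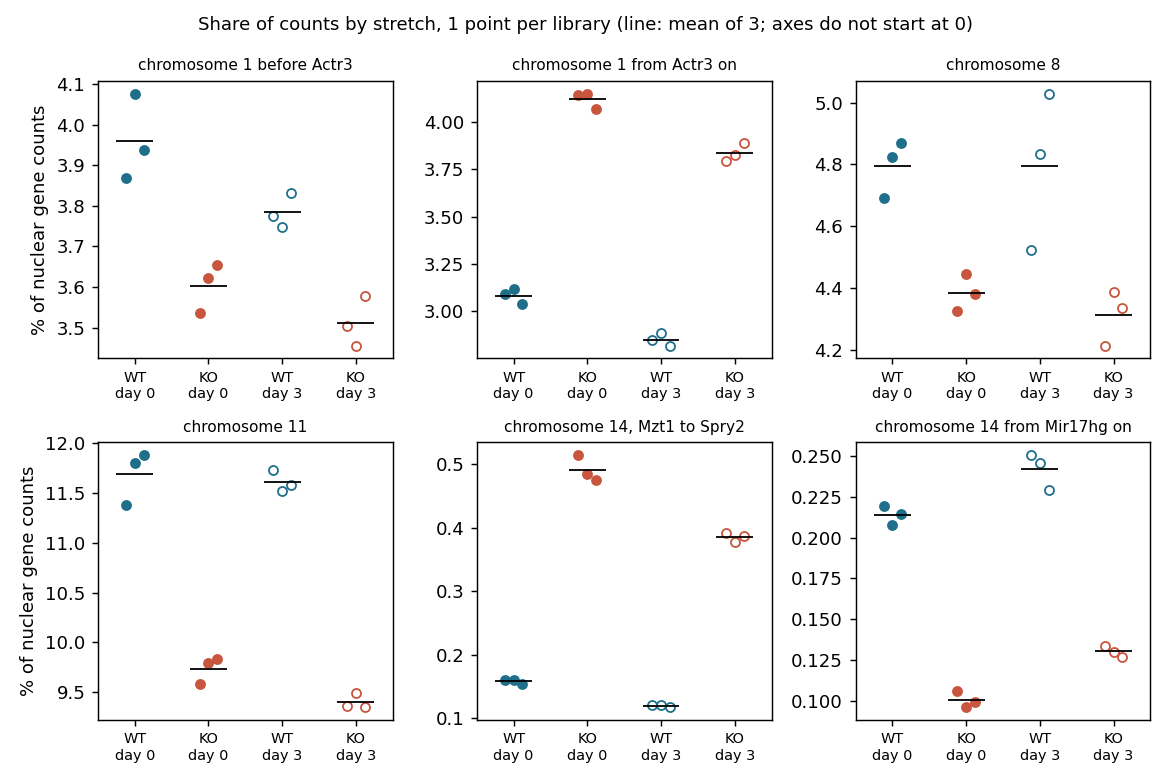
Percent of gene counts on nuclear chromosomes (vertical axis, not starting at 0) that fall in each of 6 stretches, 1 point per library and a line at the mean of 3, for WT and KO on day 0 (filled) and day 3 (open). In each of these panels the 3 KO libraries of a day lie apart from the 3 WT libraries of that day; on day 0 chromosome 11 is at 11.4% to 11.9% in WT and 9.58% to 9.83% in KO.

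The day 3 libraries share no sample with the day 0 comparison. Among genes with a mean of at least 5 CPM on day 0 they gave medians of 0.48 for chromosome 1 from Actr3 on, 1.42 and -0.94 for the raised and lowered stretches of chromosome 14, -0.30 for chromosome 11 (day 0, same genes, -0.24) and -0.13 for chromosome 8 (day 0 -0.14). Of 454 bins of 5 Mb with at least 5 genes, 39 had a day 0 median of at least 0.3 in size, and 34 of the 39 had the same sign on day 3. Many of the 39 lay in the stretches chosen for such values. These were 10 on chromosome 1 from Actr3 on, 9 on chromosome 11, 3 on chromosome 8 and others at the end of chromosome 14. All bins whose sign changed lay outside these stretches. The 34 of 39 therefore does not describe the rest of the genome, where agreement was less common. The share with the same sign over all 454 bins was not computed. For chromosome X the medians over the same genes were -0.083 on day 0 and -0.016 on day 3. Chromosomes 8 and 11, chromosome 1 from Actr3 on and chromosome 14 from Mzt1 on together held 16.6% of tested genes, 29.7% of the genes that were lower and 15.2% of those that were higher. Outside them 12174 genes were tested, 1896 were lower and 2254 higher, and 1356 exceeded a fold of 2. All of these values are RNA; DNA of these cells was not analysed here.

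Genes that maintain the naive state were more often higher in KO than lower. Of 25 tested genes of core and naive pluripotency, 15 rose and 2 fell, with a median log2 fold change of 0.34. Pou5f1 (Oct4), the central factor of pluripotency, had 659, 837 and 777 CPM in WT and 888, 977 and 999 CPM in KO (log2 fold change 0.34 ± 0.07, adjusted p = 0.0055), and Sox2, its partner, had 449.6, 393 and 406 CPM in WT and 418, 369 and 386 CPM in KO (-0.09, adjusted p = 0.27), with overlapping groups. Nanog, a homeobox factor of the naive network, had 366, 307 and 309 CPM in WT and 444, 570.5 and 454 CPM in KO (log2 fold change 0.58 ± 0.10, adjusted p = 0.0029). Tfcp2l1, a target of LIF signalling, had 462, 437 and 441 CPM in WT and 678, 883 and 872 CPM in KO (log2 fold change 0.85 ± 0.09, adjusted p = 0.00028). No KO library overlapped WT for Nanog or Tfcp2l1. The T-box factor Tbx3 had 149.6, 158 and 131 CPM in WT and 288, 383 and 316 CPM in KO (log2 fold change 1.16 ± 0.08, adjusted p = 2.8e-05) and the orphan receptor Nr0b1 111, 93.8 and 87.1 CPM in WT and 248, 209 and 218 CPM in KO (log2 fold change 1.21 ± 0.07, adjusted p = 9e-06). Klf5, a Krüppel-like factor of the same network, had the largest rise of the list, with 158, 172 and 160.0 CPM in WT and 744, 815 and 744 CPM in KO (log2 fold change 2.23 ± 0.06, adjusted p = 6.8e-07). It lies in the raised stretch of chromosome 14, where the median gene was 2.56-fold higher. Genes just before Klf5 rose by similar amounts on the log2 scale (Bora 2.03, Dis3 2.00 and Pibf1 2.455). Klf12, the next gene after Klf5 with at least 5 CPM, rose by 0.67. Fgf4, the ligand that pushes ESCs toward commitment, had 128, 98.3 and 104 CPM in WT and 239, 249.5 and 210.2 CPM in KO (log2 fold change 1.09 ± 0.09, adjusted p = 5.9e-05). Dppa3 (Stella), a maternal factor that protects imprints, went the other way, with 27.1, 17.5 and 13.5 CPM in WT and 2.69, 1.23 and 1.24 CPM in KO (log2 fold change -3.50 ± 0.17, adjusted p = 5.9e-06), and was the only fall in the list besides that of Tdh, a threonine dehydrogenase gene named here after its value (-0.74) was seen. Without the replicate block 8 of the 25 were higher and 1 lower, and 7 were higher in the shared-block fit. Pou5f1 did not pass without the block (adjusted p = 0.072), in the within-day fit (0.082) or in the shared-block fit (0.24), and Nanog did not pass in the within-day (0.12) and shared-block fits (0.17). Tbx3 did not pass in the shared-block fit (0.22) nor Tdh without the block (0.18).

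Genes of the formative and primed epiblast were lower. Among 20 tested, 15 fell and 3 rose, with a median of -1.58, and 15 fell without pair 3 as well. Otx2, the homeobox factor that drives exit from the naive state, had 32.9, 28.0 and 42.2 CPM in WT and 4.36, 1.61 and 5.31 CPM in KO (log2 fold change -3.24 ± 0.20, adjusted p = 1.7e-05). Fgf5, the standard epiblast marker, had 2.43, 3.33 and 13.5 CPM in WT and 0.377, 0.375 and 1.04 CPM in KO (log2 fold change -3.32 ± 0.28, adjusted p = 7.5e-05); its highest WT value was in replicate 3. Pou3f1 (Oct6) had 17.8, 19.08 and 29.9 CPM in WT and 4.41, 5.68 and 6.998 CPM in KO (log2 fold change -1.95 ± 0.13, adjusted p = 2.5e-05). KO and WT did not overlap for any of these. Lef1, a TCF family factor, had 39.2, 54.4 and 91.8 CPM in WT and 7.96, 2.73 and 14.1 CPM in KO (log2 fold change -2.97 ± 0.28, adjusted p = 0.00012). Zic2 had 75.8, 50.7 and 69.4 CPM in WT and 18.8, 5.47 and 8.83 CPM in KO (log2 fold change -2.67 ± 0.20, adjusted p = 4.1e-05) and its neighbour Zic5 79.3, 54.4 and 50.5 CPM in WT and 19.3, 8.63 and 8.44 CPM in KO (log2 fold change -2.40 ± 0.13, adjusted p = 8.5e-06). These zinc finger genes lie in the lowered stretch of chromosome 14, where the median gene was at -0.95, and both fell by more than that. The de novo methyltransferases fell together, Dnmt3a with 189, 326 and 255 CPM in WT and 113, 97.6 and 113 CPM in KO (log2 fold change -1.22 ± 0.15, adjusted p = 0.00049) and Dnmt3b with 419.7, 552 and 698 CPM in WT and 346, 264 and 339 CPM in KO (log2 fold change -0.80 ± 0.14, adjusted p = 0.0025). Etv4, an ETS factor downstream of FGF, was one of the 3 that rose, with 49.9, 102.4 and 77.0 CPM in WT and 114, 209.5 and 189 CPM in KO (log2 fold change 1.17 ± 0.07, adjusted p = 1.6e-05). Without the block 1 rose.

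**Figure D3:**
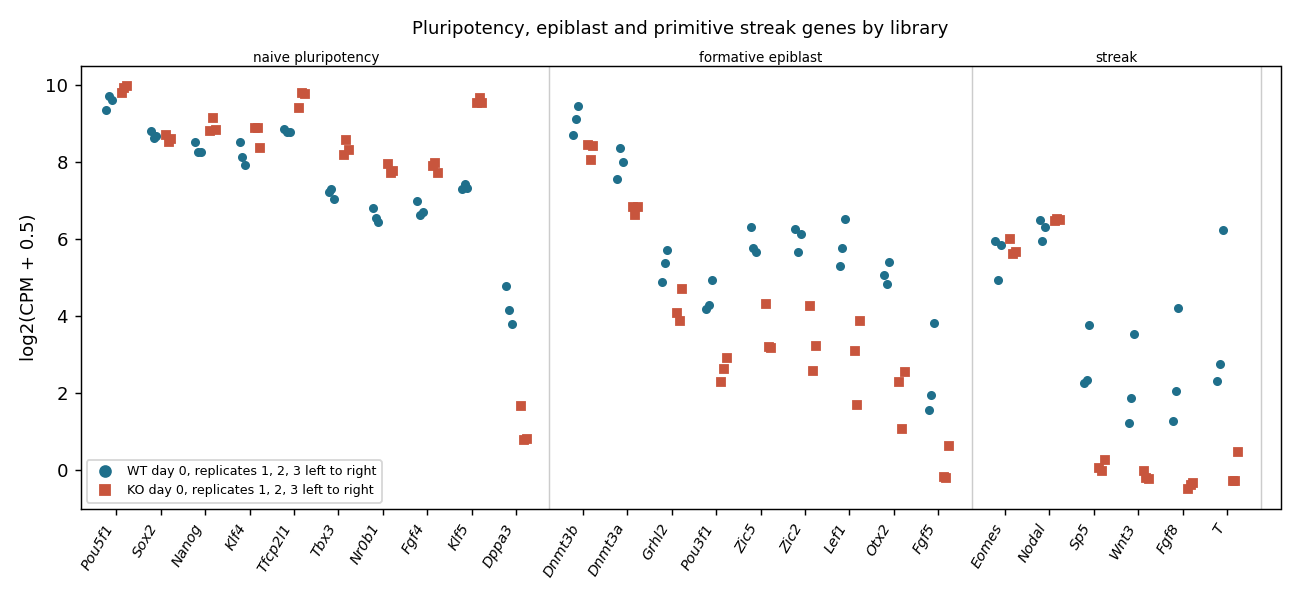
Expression of 25 genes as log2(CPM + 0.5) (vertical axis) in the 3 WT (circles) and 3 KO (squares) libraries of day 0, grouped as naive pluripotency, formative epiblast and primitive streak genes. Klf5 lies at 158 to 172 CPM in WT and 744 to 815 CPM in KO, the 9 formative genes shown lie lower in all KO libraries, and T shows the high value of WT replicate 3, 74.96 CPM.

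Other genes of DNA methylation and Polycomb moved upward more often. In that list 9 of 27 rose and 3 fell, namely Dnmt3a, Dnmt3b and Ezh1, with a median of 0.11. Ezh1, a Polycomb methyltransferase on chromosome 11, had 53.6, 41.4 and 37.7 CPM in WT and 30.9, 24.6 and 26.6 CPM in KO (log2 fold change -0.68 ± 0.09, adjusted p = 0.00065). Tet2, which oxidises methylcytosine, had 164, 189.7 and 121 CPM in WT and 395, 466 and 443 CPM in KO (log2 fold change 1.48 ± 0.11, adjusted p = 4.7e-05), and Bmi1, a subunit of Polycomb repressive complex 1, had 5.92, 7.77 and 6.60 CPM in WT and 14.2, 17.8 and 15.5 CPM in KO (log2 fold change 1.23 ± 0.13, adjusted p = 0.00019). The maintenance methyltransferase gene Dnmt1 had 407, 433 and 408 CPM in WT and 397, 404 and 436 CPM in KO (-0.01, adjusted p = 0.9). Rnf2, the catalytic subunit of the same Polycomb complex, had 165, 156 and 147 CPM in WT and 293, 281 and 299 CPM in KO (log2 fold change 0.90 ± 0.07, adjusted p = 3.8e-05) and lies in the raised part of chromosome 1. Without the block 5 of the list rose.

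Most primitive streak genes were low in both genotypes, and several were lower still in KO. Of 22 tested, 11 fell and 1 rose (median -0.89). Without pair 3, in which WT replicate 3 stands apart, 5 fell and 2 rose, and without the block 6 fell. Of the 11 that fell, 8 were at or below 1 CPM in all KO libraries and so entered the test only because WT was higher, 3 of them only through WT replicate 3. Among the 12 members over 1 CPM in both groups 3 fell and 1 rose. T had 4.50, 6.21 and 74.96 CPM in WT and 0.323, 0.322 and 0.893 CPM in KO (log2 fold change -5.60 ± 0.38, adjusted p = 2.7e-05), and its KO values stayed below the lowest WT library. Without pair 3 the log2 fold changes of T, Fgf8 and Wnt3 were -4.02, -3.48 and -2.51, and all of them still passed. Fgf8, a streak FGF ligand, had 1.90, 3.68 and 18.01 CPM in WT and 0.215, 0.268 and 0.298 CPM in KO (log2 fold change -4.73 ± 0.44, adjusted p = 0.00012). Wnt3, the ligand that sets up the streak, had 1.85, 3.18 and 11 CPM in WT and 0.484, 0.375 and 0.347 CPM in KO (log2 fold change -3.53 ± 0.48, adjusted p = 0.00073). Mixl1, a homeobox gene of the streak, had 0.952, 0.959 and 6.04 CPM in WT and 0.323, 1.02 and 1.04 CPM in KO (log2 fold change -1.50 ± 0.48, adjusted p = 0.037), with overlapping groups; without pair 3 it was at -0.56 and did not pass, and it did not pass without pair 1, without the block, in either 12-library fit or with DESeq2. Nodal, the TGF-beta ligand above Eomes, had 90.5, 60.8 and 78.8 CPM in WT and 87.4, 92.1 and 89.9 CPM in KO (0.24, adjusted p = 0.12) and passed without pair 1 (0.39, adjusted p = 0.038). Bmp4 was the gene that rose, with 12.8, 13.7 and 21.5 CPM in WT and 80.4, 67.8 and 117 CPM in KO (log2 fold change 2.46 ± 0.09, adjusted p = 1.9e-06). Its lowest KO library lay above its highest WT library. In bulk RNA, fewer cells expressing such genes and less RNA per cell cannot be told apart.

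Some Wnt genes outside the streak set, such as Wnt8a and Tcf7, fell too. In the list of Wnt pathway genes and targets 14 of 25 fell and 2 rose (median -0.90), and 11 still fell without pair 3. This list overlaps others: T, Wnt3 and Sp5 are counted in the streak list as well, and Lef1 in the formative list. Its count is therefore not separate from theirs. Of the 14, 6 were at or below 1 CPM in all KO libraries and were tested only because WT was higher, while 8 of the 16 members over 1 CPM in both groups fell. Sp5, a direct target and repressor of the pathway, had 4.28, 4.54 and 13.2 CPM in WT and 0.538, 0.482 and 0.695 CPM in KO (log2 fold change -3.59 ± 0.30, adjusted p = 6.6e-05). Wnt8a, a ligand gene, had 4.66, 4.996 and 10.7 CPM in WT and 0.968, 0.804 and 1.59 CPM in KO (log2 fold change -2.57 ± 0.22, adjusted p = 8.2e-05), and Tcf7, a nuclear effector, had 85.0, 70.7 and 105.9 CPM in WT and 38.2, 35.5 and 39.9 CPM in KO (log2 fold change -1.19 ± 0.09, adjusted p = 4.4e-05). Groups did not overlap for any of the 3. Sfrp1, a secreted antagonist, was higher, with 47.2, 45.8 and 54.4 CPM in WT and 105, 107 and 135 CPM in KO (log2 fold change 1.23 ± 0.07, adjusted p = 9.7e-06). Wnt3a did not pass (0.96, adjusted p = 0.09). The Sp5 promoter is shown because Sp5 is a standard readout of this pathway, from 250 bases before to 50 after the RefSeq start (GRCm38.p6, chr2:70474673-70474972, plus strand), with the TCF motif CTTTGAT in capitals:

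Sp5: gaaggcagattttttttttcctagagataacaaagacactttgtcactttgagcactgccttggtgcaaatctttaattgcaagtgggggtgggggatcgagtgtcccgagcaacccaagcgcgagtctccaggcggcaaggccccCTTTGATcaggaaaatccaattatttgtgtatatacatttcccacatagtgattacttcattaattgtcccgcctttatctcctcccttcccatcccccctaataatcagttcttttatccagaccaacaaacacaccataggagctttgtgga

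The motif stood once in it, on the plus strand, 104 bases before the start. On either strand it was in 3.73% of all 32851 RefSeq promoters of this length, in 2 of 16 promoters of the Wnt genes that fell and in 1 of 7 promoters of the other tested members.

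Neural and ectodermal genes fell more often than they rose. Of 16 tested, 10 fell and 5 rose (median -1.16). Of the 5, 2 were at or below 1 CPM in all WT libraries and were tested only because KO was higher. Of the 10, 1 was at or below 1 CPM in all KO libraries and was tested only because WT was higher. Among the 12 members over 1 CPM in both groups 9 fell and 3 rose. The neural paired-box gene Pax6 had 11.5, 18.1 and 17.4 CPM in WT and 7.64, 2.41 and 5.26 CPM in KO (log2 fold change -1.67 ± 0.34, adjusted p = 0.0055) and the neurofilament gene Nefl 27.1, 33.5 and 51.6 CPM in WT and 9.14, 9.33 and 10.2 CPM in KO (log2 fold change -1.93 ± 0.15, adjusted p = 4.4e-05). Nes (nestin), an intermediate filament of progenitors, had 84.2, 83.8 and 158 CPM in WT and 32.3, 33.6 and 40.6 CPM in KO (log2 fold change -1.56 ± 0.12, adjusted p = 4.7e-05). Against these, Sox1, the earliest neural Sox gene, had 0.635, 2.17 and 2.66 CPM in WT and 2.04, 4.56 and 6.50 CPM in KO (log2 fold change 1.29 ± 0.23, adjusted p = 0.0026) with overlapping groups, and it did not pass without the block. Ncam1, a neural adhesion molecule, had 23.9, 21.6 and 15.1 CPM in WT and 51.5, 55.1 and 54.4 CPM in KO (log2 fold change 1.43 ± 0.13, adjusted p = 0.00011). Nkx6-3, a homeobox gene known from the stomach and neural tube, had the largest rise of all genes over 5 CPM, with 0.793, 0.656 and 0.716 CPM in WT and 9.36, 13.9 and 11.8 CPM in KO (log2 fold change 3.99 ± 0.23, adjusted p = 1.2e-05). Without the block 2 of the list rose, and the log2 fold change of Pax6 was -2.26 without pair 1.

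Markers of the extraembryonic lineages were measured as other cell types that an ESC culture can hold. Of 15 tested trophectoderm genes 9 fell and 2 rose (median -0.94); the summed level was 184 to 273 CPM in WT and 124.6 to 187 in KO. Without the block, and in the shared-block fit, 4 fell and 1 rose, and without pair 3, 6 fell. Of the 9, 4 were at or below 1 CPM in all KO libraries and were tested only because WT was higher. Cdx2, its defining homeobox gene, had 0.37, 0.757 and 4.91 CPM in WT and 0.108, 0.536 and 0.397 CPM in KO (log2 fold change -2.28 ± 0.59, adjusted p = 0.016), and lay below 1 CPM outside WT replicate 3; it did not pass without the block (adjusted p = 0.13) and was too low to be tested without pair 3. The keratin genes Krt8 and Krt18 made up part of the fall, with 50.8, 36.0 and 69.5 CPM in WT and 16.2, 12.4 and 10.97 CPM in KO for Krt8 (log2 fold change -1.95 ± 0.19, adjusted p = 0.00016), of whose 100-base words 16.9% stand in other genes. Tead4, the TEAD factor of this lineage, was higher (12.3, 12.7 and 11.8 CPM in WT and 21.7, 40.0 and 36.1 CPM in KO, log2 fold change 1.37 ± 0.16, adjusted p = 0.00038). Of 19 endoderm genes 3 fell and 5 rose (median 0.03), near the shares over all tested genes, 18.5% and 18.2%. Its defining factors Gata4 and Gata6 did not pass and stayed at or below 5.91 CPM in all libraries, and Afp and Ttr, which mark visceral endoderm, were too low to be tested. Sox7 had 1.11, 1.67 and 1.89 CPM in WT and 5.54, 7.77 and 13.2 CPM in KO (log2 fold change 2.46 ± 0.21, adjusted p = 7.4e-05). Hnf4a, a nuclear receptor, had 1.32, 1.009 and 0.614 CPM in WT and 5.16, 7.24 and 4.32 CPM in KO (log2 fold change 2.50 ± 0.26, adjusted p = 0.0002). Neither passed in the shared-block fit (adjusted p = 0.054 for Sox7 and 0.1 for Hnf4a), in which 1 endoderm gene fell and 1 rose.

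Feeder fibroblast markers varied mainly between pairs. The collagen gene Col1a1 had 29.1, 114 and 54.9 CPM in WT and 39.0, 145 and 75.2 CPM in KO (log2 fold change 0.41 ± 0.07, adjusted p = 0.0019), with both genotypes highest in replicate 2. Of 28 tested markers 15 rose and 4 fell (median 0.42); without the block 0 rose and 1 fell, and without pair 3, 11 rose. In the within-day fit 8 rose and in the shared-block fit 0 rose and 0 fell. Col1a1 did not pass without the block (adjusted p = 0.69) or in the shared-block fit (0.45). The summed level was 2312 to 2993 CPM in WT and 1917 to 2770 in KO. Its largest member was fibronectin, Fn1, which ESCs also express and which fell (1746, 1718 and 1844 CPM in WT and 1192, 1092 and 1431 CPM in KO, log2 fold change -0.52 ± 0.08, adjusted p = 0.0012), though it did not pass in the shared-block fit (adjusted p = 0.17). The part of feeder RNA in the other results was not tested.

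The 2-cell-like program was higher in KO. Of 18 listed genes 14 were tested and all 14 rose, but 5 of these were at or below 1 CPM in all WT libraries and were tested only because KO was higher. The other 9, over 1 CPM in both groups, rose too. The median log2 fold change was 2.17, and all 14 also rose without pair 3 and 12 without the block. The summed level was 15.7 to 25.4 CPM in WT and 80.5 to 103.5 in KO. Zscan4c, a telomere factor gene of this state, had 3.75, 3.58 and 2.15 CPM in WT and 18.2, 17.8 and 11.1 CPM in KO (log2 fold change 2.31 ± 0.15, adjusted p = 2e-05). Zscan4d had 6.82, 5.35 and 3.12 CPM in WT and 26.0, 21.7 and 21.4 CPM in KO (log2 fold change 2.21 ± 0.17, adjusted p = 5.4e-05). Pramel7, which acts in ground state pluripotency, had 2.38, 1.67 and 1.53 CPM in WT and 8.45, 11.2 and 9.48 CPM in KO (log2 fold change 2.38 ± 0.23, adjusted p = 0.00012). Tmem92 had 1.16, 1.51 and 1.07 CPM in WT and 6.19, 6.49 and 4.47 CPM in KO (log2 fold change 2.18 ± 0.22, adjusted p = 0.00016). KO and WT overlapped for none of the 14, the 5 tested only because KO was higher included. Of all tested genes 35.3% had no overlap. Reads that align to several places were not counted, and 72.8% and 29.6% of the 100-base words of Zscan4c and Zscan4d stand in other genes too, so the levels of single family members are uncertain. Pramel7 and Tmem92 shared 0%.

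Germline genes were counted beside them. Of 27 tested, 10 rose and 4 fell (median 0.26). The RNA binding gene Dazl had 16.3, 11 and 7.47 CPM in WT and 25.7, 29.1 and 20.9 CPM in KO (log2 fold change 1.17 ± 0.17, adjusted p = 0.00093). Mael, a piRNA pathway gene in the raised part of chromosome 1, had 12.1, 8.98 and 5.27 CPM in WT and 33.2, 23.97 and 18.7 CPM in KO (log2 fold change 1.55 ± 0.12, adjusted p = 5.9e-05). Sohlh2, a germ cell bHLH gene, had 36.9, 27.3 and 14.2 CPM in WT and 67.3, 87.6 and 51.3 CPM in KO (log2 fold change 1.45 ± 0.17, adjusted p = 0.00032). Dmrt1, a sex determination gene, fell within each pair while its groups overlapped (50.04, 43.1 and 26.6 CPM in WT and 27.2, 22.8 and 13.2 CPM in KO, log2 fold change -0.93 ± 0.09, adjusted p = 0.00011). Ddx4 (Vasa) had 0.07 (adjusted p = 0.68). Without the block 4 of the list rose and 1 fell, and Dmrt1 did not pass (adjusted p = 0.079).

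Nearly all measured genes of the MHC class I pathway fell. This pathway cuts proteins in the immunoproteasome, pumps the peptides into the endoplasmic reticulum and presents them on class I molecules with beta-2 microglobulin, and it is weak in ESCs and raised by interferon. Of 16 tested genes 15 were lower in KO and none was higher (the 1 that did not pass, H2-M3, was at -0.49 and is named after its value was seen), with a median of -1.28. Without pair 3, 14 fell, and without the block 11. Of the 15, 2 were at or below 1 CPM in all KO libraries and were tested only because WT was higher. Psmb8, an immunoproteasome subunit, had 9.31, 5.40 and 19.8 CPM in WT and 0.645, 0.268 and 0.199 CPM in KO (log2 fold change -4.88 ± 0.40, adjusted p = 6.5e-05). Psmb10, another, had 32.3, 38.3 and 66.8 CPM in WT and 13.5, 14.2 and 16.0 CPM in KO (log2 fold change -1.60 ± 0.15, adjusted p = 0.00011). The proteasome activator genes Psme1 and Psme2 had 73.4, 55.7 and 85.5 CPM in WT and 44.2, 29.3 and 36.5 CPM in KO (log2 fold change -0.96 ± 0.10, adjusted p = 0.0002) and 44.9, 37.2 and 63.2 CPM in WT and 24.5, 15.2 and 20.2 CPM in KO (log2 fold change -1.27 ± 0.14, adjusted p = 0.00023). Erap1, the peptidase that trims peptides, had 18.8, 19.7 and 48.6 CPM in WT and 6.13, 4.83 and 4.52 CPM in KO (log2 fold change -2.37 ± 0.29, adjusted p = 0.00045). Of the presenting molecules, H2-K1 had 64.6, 35.7 and 57.5 CPM in WT and 36.2, 16.4 and 17.2 CPM in KO (log2 fold change -1.22 ± 0.15, adjusted p = 0.00048), its KO replicate 1 overlapping WT replicate 2, and H2-D1 28.7, 20.6 and 27.8 CPM in WT and 19.15, 14.8 and 12.9 CPM in KO (log2 fold change -0.72 ± 0.14, adjusted p = 0.0036). B2m, the shared light chain, had the smallest fall of these, and did not pass without replicate 1 (22.4, 18.98 and 21.2 CPM in WT and 13.3, 14.2 and 17.97 CPM in KO, log2 fold change -0.47 ± 0.13, adjusted p = 0.018). Without the block neither H2-K1 nor B2m passed (adjusted p = 0.051 and 0.094). Psmb8, highest in WT replicate 3, was at -4.01 without pair 3 and -5.67 without pair 1, and passed in both.

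Guanylate binding proteins, interferon-induced GTPases, were among the largest falls of all. Gbp2 had 65.7, 35.8 and 116 CPM in WT and 7.48, 1.98 and 3.67 CPM in KO (log2 fold change -4.03 ± 0.28, adjusted p = 3.3e-05). Gbp2b had 49.9, 30.1 and 102.4 CPM in WT and 5.54, 1.18 and 2.58 CPM in KO (log2 fold change -4.27 ± 0.33, adjusted p = 4.8e-05). Gbp3 had 14.9, 10.8 and 26.9 CPM in WT and 1.08, 0.375 and 1.29 CPM in KO (log2 fold change -4.26 ± 0.21, adjusted p = 6.8e-06). Gbp4, on another chromosome, had 9.36, 8.53 and 16.5 CPM in WT and 0.914, 0.214 and 0.893 CPM in KO (log2 fold change -4.09 ± 0.29, adjusted p = 3.3e-05). In each of them WT replicate 3 was the highest library and KO stayed below the lowest WT library. Without pair 1 the log2 fold changes of Gbp2 and Gbp2b were -4.68 and -5.10. In the interferon response list as a whole 12 of 27 were lower and 3 higher, with a median of -0.42. Of the 12, 2 were at or below 1 CPM in all KO libraries, and of the 3, 2 were so in all WT libraries. Those genes were tested only because the other group was higher. Among the 21 members over 1 CPM in both groups 10 were lower and 1 higher. A further 8 listed genes, among them Mx1 and Irf7, were too low to be tested. Oasl2, an antiviral sensor relative, had 11.2, 5.25 and 10.1 CPM in WT and 1.56, 0.697 and 2.04 CPM in KO (log2 fold change -2.64 ± 0.21, adjusted p = 5.9e-05). Parp14 had 21.1, 25.6 and 31.6 CPM in WT and 5.75, 6.43 and 8.09 CPM in KO (log2 fold change -1.95 ± 0.11, adjusted p = 1.4e-05). In the other direction Oas2, which makes the activator of RNase L, had 1.96, 1.87 and 2.15 CPM in WT and 4.68, 7.08 and 8.59 CPM in KO (log2 fold change 1.74 ± 0.22, adjusted p = 0.00052). Ifit3 was near 0 in WT and reached 3.52 CPM in KO replicate 3 (log2 fold change 4.31 ± 0.61, adjusted p = 0.00092); 31.7% of its 100-base words are shared with other genes and it was too low to be tested without pair 3. Ifit1 did not pass (0.37, adjusted p = 0.67; -1.02 without pair 3).

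The promoters of the neighbouring genes Gbp2, Gbp2b and Gbp3 and of Psmb8 are shown since Gbp3, Gbp2 and Psmb8 had the largest falls of the 2 lists. Each runs from 250 bases before to 50 after the RefSeq start in GRCm38.p6, 5′ to 3′ on the plus strand. Capitals mark the core of the interferon-stimulated response element (ISRE) in the Gbp genes and the STAT motif TTCNNNGAA in Psmb8. The ISRE core searched was a pair of GAAA with any 2 bases between them, on either strand; in all 3 Gbp promoters it stands on the opposite strand and so reads as its reverse complement, and matches that overlap in Gbp3 were merged. The windows are chr3:142620413-142620712 for Gbp2, chr3:142594597-142594896 for Gbp2b, chr3:142559794-142560093 for Gbp3 and chr17:34197945-34198244 for Psmb8.

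Gbp2: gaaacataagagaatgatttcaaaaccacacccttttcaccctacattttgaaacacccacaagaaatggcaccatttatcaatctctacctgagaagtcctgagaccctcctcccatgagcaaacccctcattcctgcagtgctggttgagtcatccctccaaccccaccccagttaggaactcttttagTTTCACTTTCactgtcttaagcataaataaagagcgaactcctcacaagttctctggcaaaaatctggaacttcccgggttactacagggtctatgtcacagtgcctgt

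Gbp2b: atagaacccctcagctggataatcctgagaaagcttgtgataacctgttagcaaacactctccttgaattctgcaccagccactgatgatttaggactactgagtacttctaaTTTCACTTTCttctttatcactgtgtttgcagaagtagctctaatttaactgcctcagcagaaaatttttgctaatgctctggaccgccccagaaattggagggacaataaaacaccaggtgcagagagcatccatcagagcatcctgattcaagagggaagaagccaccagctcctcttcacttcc

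Gbp3: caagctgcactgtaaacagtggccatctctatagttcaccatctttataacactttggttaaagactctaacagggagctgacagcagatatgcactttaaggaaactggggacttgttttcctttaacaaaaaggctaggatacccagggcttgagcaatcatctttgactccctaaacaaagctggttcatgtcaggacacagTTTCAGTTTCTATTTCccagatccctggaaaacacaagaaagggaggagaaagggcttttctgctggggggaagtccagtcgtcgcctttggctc

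Psmb8: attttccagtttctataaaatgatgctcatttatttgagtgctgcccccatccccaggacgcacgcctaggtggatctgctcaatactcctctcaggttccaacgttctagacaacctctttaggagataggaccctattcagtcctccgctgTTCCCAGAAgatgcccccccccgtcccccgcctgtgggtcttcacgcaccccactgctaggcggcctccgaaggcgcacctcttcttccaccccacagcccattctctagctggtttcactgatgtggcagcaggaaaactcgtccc

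The ISRE core was in 3.44% of all 32851 promoters. It was in 7 of the 14 promoters of the 12 interferon response genes that fell and in 7 of 12 of the other tested members, and in 4 of the 15 MHC class I promoters that fell. TTCNNNGAA was in 8.3% of all promoters, in 5 of 14 promoters of interferon genes that fell, in 0 of 12 of the others and in 1 of 15 of the MHC class I genes that fell. These are matches of letters in a short window.

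**Figure D4:**
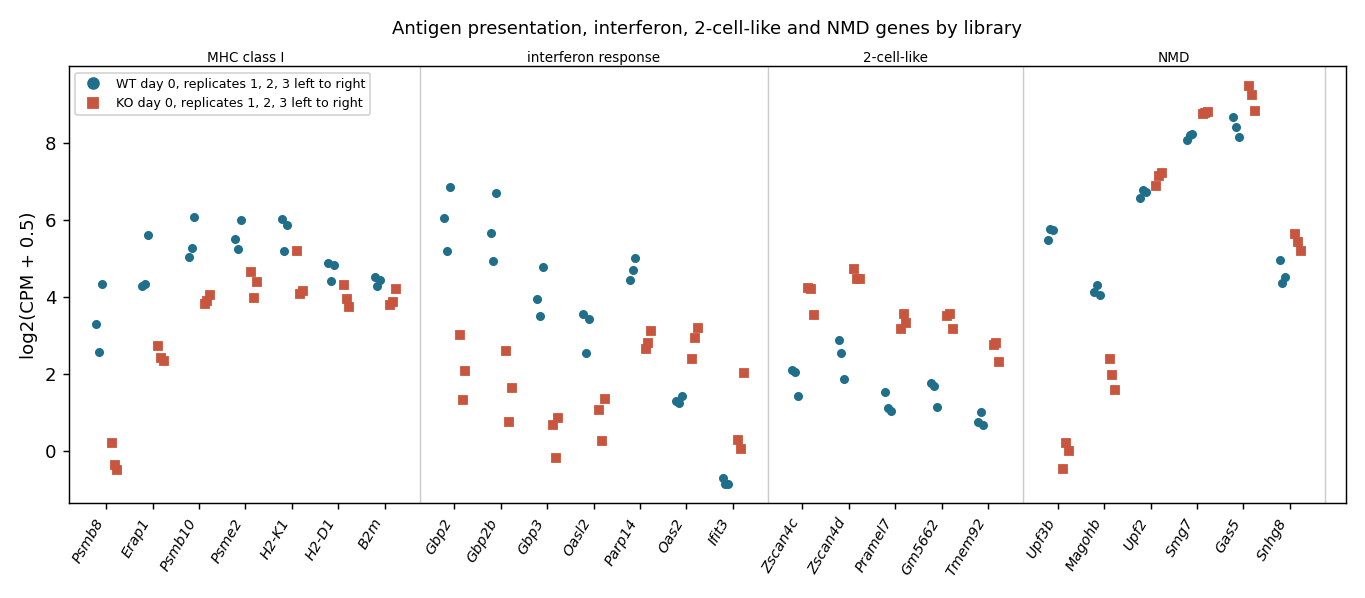
Expression as log2(CPM + 0.5) (vertical axis) of 25 genes of antigen presentation, the interferon response, the 2-cell-like state and nonsense-mediated decay in the 3 WT (circles) and 3 KO (squares) libraries of day 0. The antigen presentation genes lie lower in KO (Psmb8 from 5.40 to 19.8 CPM in WT and below 1 CPM in KO), while the 2-cell-like genes lie higher in all KO libraries.

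Nonsense-mediated decay (NMD), which removes transcripts with premature stops, held the largest fall of any gene over 5 CPM. Upf3b, an X-linked NMD factor that joins UPF2 to the exon junction complex, at chrX:37091678-37110322, had 44.1, 54.0 and 52.9 CPM in WT and 0.215, 0.643 and 0.496 CPM in KO (log2 fold change -6.78 ± 0.18, adjusted p = 6.8e-07). Its neighbours fell far less: of 10 tested genes of that list 4 fell, Upf3b included, with a median of -0.19, and Sept6, a septin gene, had 35.9, 26.2 and 35.4 CPM in WT and 18.7, 13.7 and 13.9 CPM in KO (log2 fold change -1.07 ± 0.11, adjusted p = 0.0002). Among 18 NMD factors 7 fell and 4 rose, and outside the stretches of chromosomes 1, 8, 11 and 14 the counts were 3 and 3 of 11. Without the block 4 fell and 2 rose. Magohb, an exon junction protein, had 17.03, 19.2 and 16.1 CPM in WT and 4.68, 3.43 and 2.48 CPM in KO (log2 fold change -2.33 ± 0.18, adjusted p = 5.4e-05), although 52.9% of its 100-base words stand in other genes. Upf2 had 94.3, 109.5 and 104 CPM in WT and 118.2, 139.9 and 149 CPM in KO (log2 fold change 0.40 ± 0.07, adjusted p = 0.002), and the paralogue Upf3a 51.6, 52.9 and 51.3 CPM in WT and 46.9, 51.1 and 48.9 CPM in KO (-0.09, adjusted p = 0.39). Of 21 tested genes listed for NMD-sensitive transcripts 4 rose and 1 fell (median 0.09), beside the 18.2% of all genes that rose. Counts per gene do not separate such transcripts from the other transcripts of a gene, so NMD activity was not measured. Gas5, a snoRNA host in the raised part of chromosome 1, had 406, 344 and 286 CPM in WT and 712, 605 and 458 CPM in KO (log2 fold change 0.77 ± 0.06, adjusted p = 6.7e-05). Snhg8, another host, had 30.4, 19.8 and 22.4 CPM in WT and 48.9, 42.6 and 35.9 CPM in KO (log2 fold change 0.82 ± 0.11, adjusted p = 0.00055). Snhg5 did not pass (-0.01, adjusted p = 0.93).

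Adhesion genes moved in opposite directions by type. Of 27 epithelial genes 16 fell and 4 rose (median -0.59). Of the 16, 2 were at or below 1 CPM in all KO libraries and entered the test only through WT replicate 3. Of the 4, 1 was at or below 1 CPM in all WT libraries and was tested only because KO was higher. Among the 23 members over 1 CPM in both groups 14 fell and 3 rose. Cdh1 (E-cadherin) had 683, 658 and 760.0 CPM in WT and 473, 429 and 364 CPM in KO (log2 fold change -0.74 ± 0.10, adjusted p = 0.00075) and lies on chromosome 8. Cldn7, a tight junction gene on chromosome 11, had 16.2, 5.96 and 15.0 CPM in WT and 4.46, 0.751 and 1.64 CPM in KO (log2 fold change -2.56 ± 0.27, adjusted p = 0.0002). Krt18, on chromosome 15, had 35.9, 25.03 and 42.1 CPM in WT and 8.498, 6.65 and 5.96 CPM in KO (log2 fold change -2.27 ± 0.17, adjusted p = 4.1e-05). Basement membrane and integrin genes rose, 15 of 23, with 1 fall (median 0.56), and outside the stretches 9 of 15 rose. Lama1, a laminin chain, had 67.4, 109 and 58.4 CPM in WT and 213, 258 and 240.2 CPM in KO (log2 fold change 1.64 ± 0.13, adjusted p = 4.9e-05). Lamc1, the chain it pairs with, had 524, 678 and 559.7 CPM in WT and 1376, 1703 and 1646 CPM in KO (log2 fold change 1.43 ± 0.07, adjusted p = 7e-06). It lies in the distal part of chromosome 1, where the median was 0.40. Itga5, the fibronectin receptor subunit, had 86.1, 98.5 and 92.5 CPM in WT and 198, 214 and 212 CPM in KO (log2 fold change 1.17 ± 0.06, adjusted p = 7.2e-06). Lamb1 was the exception, with 152, 187 and 209.9 CPM in WT and 102.1, 119 and 107 CPM in KO (log2 fold change -0.73 ± 0.08, adjusted p = 0.00031). Without the block, and in the shared-block fit, 9 epithelial genes fell, and in the shared-block fit 8 basement membrane and integrin genes rose.

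Other signalling lists were mixed. Their counts are to be read beside the 18.5% of all tested genes that fell and the 18.2% that rose. The BMP list lay near both, with 22.7% each way. The LIF and STAT3 list shares Tfcp2l1, Klf4 and Stat3 with the pluripotency list and Gbx2 with the ectoderm list. In it 9 of 18 rose and 1 fell (median 0.44), but without the block 3 rose. Its receptor genes Lifr and Il6st and the transducer Stat3 did not pass (0.22, 0.13 and 0.06), while Bcl3, a nuclear I-kappa-B protein, had 21.3, 27.6 and 22.2 CPM in WT and 49.8, 65.9 and 70.0 CPM in KO (log2 fold change 1.38 ± 0.10, adjusted p = 4e-05). Of 26 FGF and ERK genes 8 fell and 5 rose; Dusp4, an ERK phosphatase, fell (37.2, 23.8 and 45.8 CPM in WT and 15.8, 7.24 and 12.1 CPM in KO, log2 fold change -1.62 ± 0.14, adjusted p = 7.9e-05) and Fgfr3, a receptor gene, rose (7.25, 3.18 and 3.58 CPM in WT and 21.8, 22.2 and 18.1 CPM in KO, log2 fold change 2.20 ± 0.21, adjusted p = 0.00014). Of 22 BMP genes 5 fell and 5 rose; the target Id3 was lower (35.2, 35.7 and 59.6 CPM in WT and 24.7, 26.8 and 24.9 CPM in KO, log2 fold change -0.73 ± 0.15, adjusted p = 0.0059) while the ligand Bmp4 was higher. Of 18 Nodal genes 3 fell and 5 rose, Lefty2, a feedback inhibitor, with 198, 224 and 222 CPM in WT and 385, 313 and 368 CPM in KO (log2 fold change 0.73 ± 0.09, adjusted p = 0.00043). The Notch, Hedgehog and retinoic acid list had 15 of 31 lower and 7 higher (median -0.31); the Notch ligand Dll3 had 7.46, 8.78 and 9.26 CPM in WT and 3.82, 2.04 and 1.99 CPM in KO (log2 fold change -1.73 ± 0.26, adjusted p = 0.0012). Only 7 of 34 Hox genes could be tested, and of these Hoxb1 (1.43, 1.11 and 2.71 CPM in WT and 0.108, 0.161 and 0.0993 CPM in KO, log2 fold change -3.75 ± 0.47, adjusted p = 0.00047) and Hoxb2 fell; both were at or below 1 CPM in all KO libraries and were tested only because WT was higher. Without the block 2 BMP genes fell and 1 rose, 3 Nodal genes rose and 1 gene of the Notch, Hedgehog and retinoic acid list rose, and in the shared-block fit 7 genes of that last list fell. Id3 did not pass in the within-day (adjusted p = 0.062) and shared-block fits (0.11), nor Lefty2 in the latter (0.069), while Lifr passed without pair 2 (0.42, adjusted p = 0.0032).

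Imprinted genes fell more often than they rose, 15 against 6 of 38 tested (median -0.31). Meg3 and Rian, noncoding RNAs of one imprinted locus, had 247, 241 and 306 CPM in WT and 177, 124 and 193 CPM in KO (log2 fold change -0.70 ± 0.09, adjusted p = 0.00052) and 341, 364 and 435 CPM in WT and 207, 124.9 and 196 CPM in KO (log2 fold change -1.13 ± 0.13, adjusted p = 0.00032). Mest, a paternally expressed gene, had 39.2, 63.9 and 85.1 CPM in WT and 14.2, 16.6 and 21.6 CPM in KO (log2 fold change -1.81 ± 0.11, adjusted p = 1.8e-05). Cdkn1c, the maternally expressed CDK inhibitor p57, went up, with 47.0, 48.9 and 38.4 CPM in WT and 152, 172 and 148 CPM in KO (log2 fold change 1.82 ± 0.07, adjusted p = 2.3e-06), and H19 went down, with 15.0, 20.9 and 24.2 CPM in WT and 9.52, 12.8 and 12.3 CPM in KO (log2 fold change -0.79 ± 0.12, adjusted p = 0.0013). Igf2, next to H19, did not pass (-0.22, adjusted p = 0.17). H19 did not pass in the within-day (adjusted p = 0.45) and shared-block fits (0.62). Without the block 3 imprinted genes rose.

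Cell cycle genes moved both ways. The list counts here stand beside the 18.5% of all tested genes that fell and the 18.2% that rose. Mycn, the Myc gene typical of the epiblast, had 294, 218 and 292 CPM in WT and 124, 47.8 and 83.0 CPM in KO (log2 fold change -1.74 ± 0.15, adjusted p = 7.5e-05), the largest fall of the cell cycle list after that of Ccna1 (-2.48, named after its value was seen), in which 5 of 27 fell and 9 rose. Without the block 1 fell and 2 rose, and without pair 3, 4 rose. Ccna1 did not pass without the block (adjusted p = 0.086) or with DESeq2 (0.071). Ccnd3 had 165, 211 and 178 CPM in WT and 277, 421 and 374 CPM in KO (log2 fold change 0.94 ± 0.08, adjusted p = 5.9e-05). Ccnd2 had 34.1, 70.2 and 56.5 CPM in WT and 16.3, 35.2 and 36.5 CPM in KO (log2 fold change -0.89 ± 0.10, adjusted p = 0.00031) and did not pass without the block (adjusted p = 0.13). The let-7 antagonist Lin28b had 68.0, 82.1 and 94.8 CPM in WT and 51.1, 37.8 and 39.4 CPM in KO (log2 fold change -0.93 ± 0.14, adjusted p = 0.0014), and 5 of 7 oncofetal RNA binding genes fell. Cholesterol synthesis genes fell in 11 of 21 cases and rose in none (median -0.30), and 7 fell without the block. In the hypoxia and glycolysis list 4 fell and 5 rose of 30, and without the block 0 fell and 2 rose. The glucose transporter gene Slc2a3 ran with the replicate number rather than the genotype (1982, 869.6 and 1060 CPM in WT and 1707, 1014 and 942 CPM in KO). Oxidative phosphorylation subunits rose in 20 of 79 cases with 1 fall (median 0.13), but in 3 without the block. Cytosolic ribosomal protein genes had a median of 0.01, with 10 of 84 lower; outside the stretches 3 of 75 were lower. The 2 with the smallest p-values were Rpl39l and Rpl10l, copies typical of testis, which rose. Rpl39l had 19.04, 28.5 and 20.3 CPM in WT and 79.9, 88.8 and 100.5 CPM in KO (log2 fold change 2.00 ± 0.12, adjusted p = 1.6e-05). Rpl10l had 38.5, 47.2 and 22.9 CPM in WT and 86.4, 108 and 74.9 CPM in KO (log2 fold change 1.35 ± 0.11, adjusted p = 6.1e-05). Of 7 tested mitochondrially encoded genes 4 rose, mt-Nd4 with 1036, 1228 and 1032 CPM in WT and 1395, 1477 and 1478 CPM in KO (log2 fold change 0.40 ± 0.07, adjusted p = 0.0032), and none passed without pair 3; 60.8% of the 100-base words of mt-Nd4 stand in other genes.

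Stress programs gave no common direction. For comparison, 18.5% of all tested genes fell and 18.2% rose. Of 24 p53 targets 8 rose and 3 fell (median 0.07), Cdkn1a (p21) with 96.8, 46.1 and 60.4 CPM in WT and 54.1, 41.3 and 39.6 CPM in KO (log2 fold change -0.54 ± 0.12, adjusted p = 0.0075) and Plk3 with 62.7, 49.8 and 45.4 CPM in WT and 109, 88.7 and 99.8 CPM in KO (log2 fold change 0.92 ± 0.08, adjusted p = 9.7e-05). Trp53 itself, on chromosome 11, had 487, 585 and 638 CPM in WT and 404, 456 and 495 CPM in KO (log2 fold change -0.33 ± 0.06, adjusted p = 0.0035). Of 27 integrated stress response genes 8 fell and 5 rose (median 0.0031); Atf4, its main effector, had 254, 274 and 222 CPM in WT and 375, 357 and 269 CPM in KO (log2 fold change 0.41 ± 0.07, adjusted p = 0.0024). Cth, which makes cysteine, had 54.9, 45.2 and 26.5 CPM in WT and 134, 99.5 and 77.9 CPM in KO (log2 fold change 1.32 ± 0.09, adjusted p = 2.5e-05). Immediate early genes fell in 7 of 20 cases, Egr1 with 145, 174 and 158 CPM in WT and 109, 70.1 and 62.2 CPM in KO (log2 fold change -1.02 ± 0.16, adjusted p = 0.0016), and rose in 1, Nr4a1, an orphan receptor gene, with 46.6, 48.0 and 53.5 CPM in WT and 124, 116 and 130.1 CPM in KO (log2 fold change 1.32 ± 0.07, adjusted p = 7e-06). Without pair 2, 12 of the 20 immediate early genes fell. Without the block 4 p53 targets rose and 0 fell, 2 integrated stress response genes fell and 2 rose, and Cdkn1a, Trp53 and Atf4 did not pass (adjusted p = 0.17, 0.1 and 0.083). Cdkn1a did not pass without pair 1 either (0.058). Xist had 1.64, 6.61 and 3.48 CPM in WT and 2.85, 10.46 and 8.54 CPM in KO (log2 fold change 0.92 ± 0.20, adjusted p = 0.0067) and did not pass without the block, and the Y-linked gene Ddx3y had 0.212 to 2.08 CPM over the 6 libraries.

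**Figure D5:**
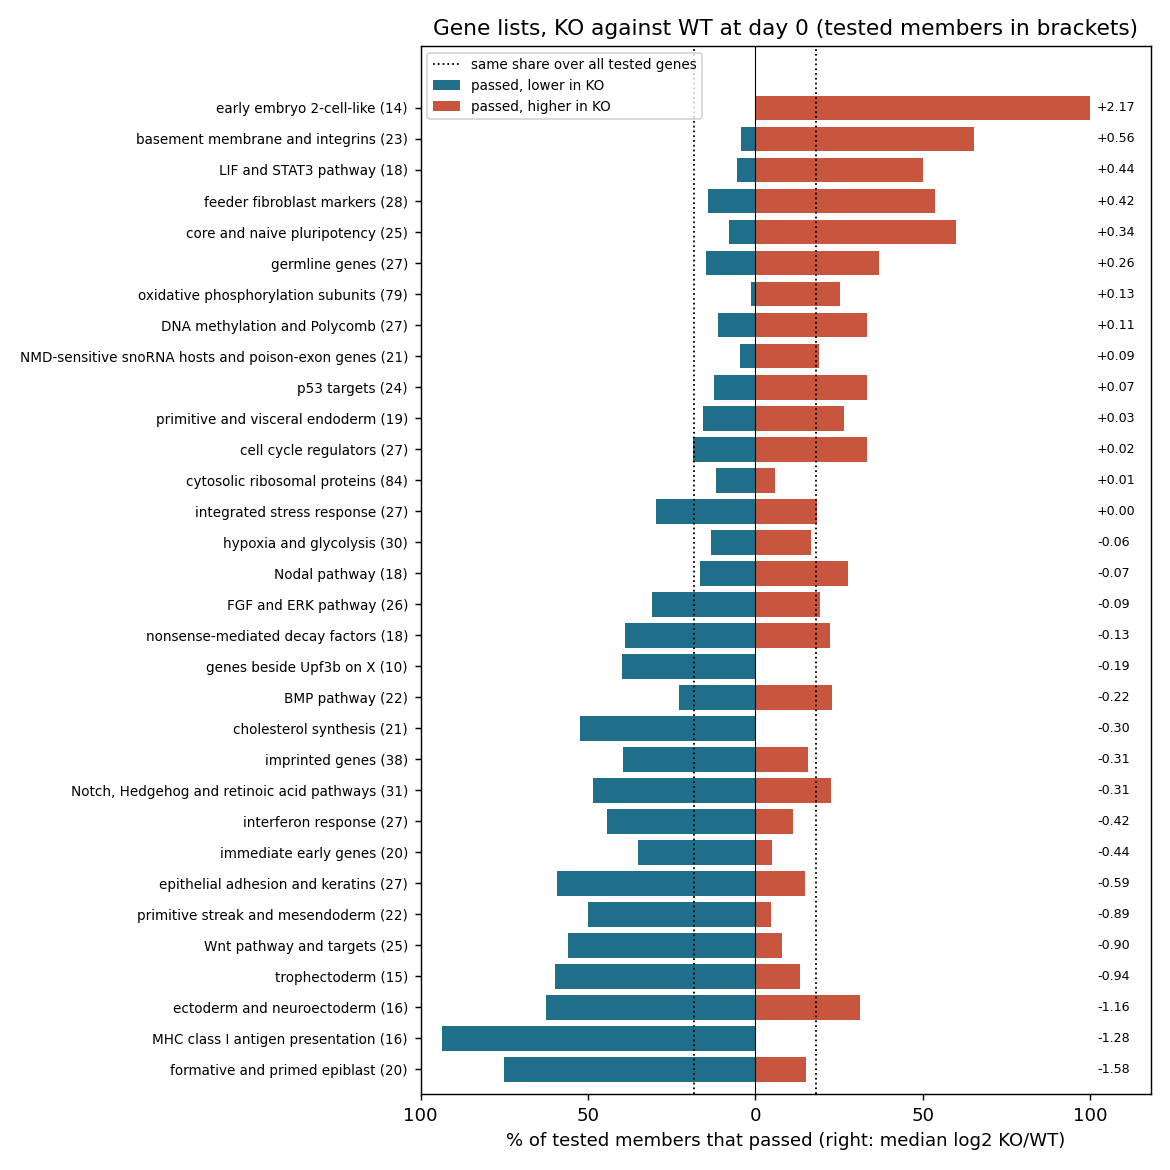
Percent of the tested members of each list with at least 10 tested members that were lower (left) or higher (right) in KO on day 0 with an adjusted p below 0.05; dotted lines give the shares over all tested genes, 18.5% and 18.2%, and the median log2 fold change stands at the right. The lists are ordered by median, from 2.17 for the 2-cell-like genes to -1.58 for the formative epiblast genes.

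Several of the genes with the largest changes belong to none of these groups. Usp26, an X-linked deubiquitinase of the testis, had 124, 139 and 114.7 CPM in WT and 10.1, 7.13 and 5.76 CPM in KO (log2 fold change -4.05 ± 0.14, adjusted p = 1.7e-06). Slc39a8, a zinc and manganese transporter, had 8.04, 6.76 and 15.4 CPM in WT and 0.968, 0.429 and 0.596 CPM in KO (log2 fold change -3.88 ± 0.30, adjusted p = 5.1e-05), and the cardiac actin gene Actc1 6.08, 4.996 and 17.6 CPM in WT and 0.861, 0.107 and 0.546 CPM in KO (log2 fold change -4.18 ± 0.41, adjusted p = 0.00014). Actc1 and Slc39a8 were highest in WT replicate 3, while Usp26 was not. Without pair 3 Actc1 was at -3.57, and without pair 1 at -5.11. Among the rises, Msln (mesothelin) had 1.85, 2.07 and 0.665 CPM in WT and 10.7, 18.02 and 11.2 CPM in KO (log2 fold change 3.14 ± 0.26, adjusted p = 6.1e-05). Ceacam20, an adhesion molecule, had 3.49, 5.55 and 3.17 CPM in WT and 25.8, 36.0 and 39.1 CPM in KO (log2 fold change 3.05 ± 0.18, adjusted p = 1.3e-05). Islr2, a leucine-rich repeat protein of neurons, had 7.30, 6.36 and 5.17 CPM in WT and 42.5, 46.4 and 53.7 CPM in KO (log2 fold change 2.92 ± 0.15, adjusted p = 7.2e-06). Gpa33, a surface antigen in the raised part of chromosome 1, had 5.08, 5.25 and 4.09 CPM in WT and 33.8, 28.8 and 34.9 CPM in KO (log2 fold change 2.75 ± 0.14, adjusted p = 7.1e-06). Mras, a Ras-like GTPase, had the highest KO level of the 10 largest rises by fold, with 27.6, 51.3 and 42.5 CPM in WT and 181, 242 and 257 CPM in KO (log2 fold change 2.51 ± 0.10, adjusted p = 2e-06). Rgs22, Spata31d1b and the pseudogene Gm6522 rose by 2.56, 2.72 and 2.52 on the log2 scale, though 18.8% of the 100-base words of Spata31d1b stand in other genes. By amount of RNA, Ahnak, a giant scaffold protein gene, gained the most outside chromosomes 1 and 14 and the mitochondrial genome (319, 222 and 317 CPM in WT and 759.8, 699 and 858 CPM in KO, log2 fold change 1.45 ± 0.08, adjusted p = 1.4e-05), and Trh, the thyrotropin-releasing hormone gene, lost the most outside chromosomes 11 and 14 (572, 575 and 986 CPM in WT and 216, 79.5 and 218 CPM in KO, log2 fold change -2.14 ± 0.22, adjusted p = 0.00018). Nucleophosmin Npm1, on chromosome 11, had 3182, 3733 and 3590 CPM in WT and 2617, 2392 and 2643 CPM in KO (log2 fold change -0.46 ± 0.09, adjusted p = 0.004).

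Among noncoding genes over 2 CPM, Gm2762 and Gm20939 had the largest falls (-2.14 and -1.72) and Gm27234 and Gm43041 the largest rises (2.75 and 2.45). Mir17hg, the host of the miR-17 to miR-92 cluster, lies in the lowered stretch of chromosome 14 and had 86.3, 74.7 and 60.5 CPM in WT and 49.3, 36.6 and 33.4 CPM in KO (log2 fold change -0.90 ± 0.08, adjusted p = 7.9e-05).

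Of the 996 genes with a fall of over 2-fold on day 0, 427 were also lower in KO on day 3, 160 were higher and 409 did not pass there. Of the 671 with such a rise, 258 were also higher, 70 lower and 343 did not pass. These are to be read beside the 46.9% of genes that passed in either direction on day 3. A test of the difference between the days (31.2% of 15673 genes passed it) was passed by 555 of the 996 and by 281 of the 671.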

How the data were processed

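RNA-Seq was done by the authors on poly(A) RNA of 12 samples, 3 per genotype and day, with a stranded kit per the labels. Per the submitters' processing notes the tools were cutadapt 1.3, STAR 2.4.2a and HTSeq 0.6.1, and the authors deposited unnormalised read counts per gene, 1 file per library. The build was GRCm38; the strand setting of the counting was not given in the sources used here. Reads with several alignments were not counted: they made up 38.8% to 40.2% of the accounted reads on day 0, reads on no gene 6.71% to 8.19% and ambiguous reads 0.724% to 0.75%. The 5 lines per file that hold such totals were left out. Of 46517 listed genes, 46005 had a symbol and position in GENCODE M21. The kit and sequencer differ between the labels and the study's methods, so neither is named here.

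The counts were tested with edgeR 4.0.16 (R 4.3.3; quasi-likelihood, TMM) on the 6 day 0 libraries, for genes over 1 CPM in at least 1 library, with the replicate number as a block and Benjamini-Hochberg adjustment over all 14601 genes. KO and WT libraries of the same number shared deviations from their group means (correlations of 0.735, 0.537 and 0.58 over 10484 genes, against -0.619 to 0.204 between different numbers); the pairing comes from the numbers in the labels and this check. The difference between days was fitted over 12 libraries with the block within each day. Gene lists were described by counts and medians, with no test of a list. Some genes stand in more than 1 list, so the counts of such lists are not separate. Krt18 is in the formative, trophectoderm and epithelial lists and Otx2 in the formative and ectoderm lists. Lama1, Lamb1, Col4a1 and Col4a2 are in both the endoderm and basement membrane lists. The comparison, the lists and the stretches were chosen with earlier results of these data known.

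Named genes were the 10 largest falls and rises in log2 fold change and the 10 largest in CPM (adjusted p below 0.05, the former with a mean of at least 5 CPM and 1 direction in all 3 pairs), the first 3 and up to 6 smallest p-values in each list, 5 noncoding genes each way with a mean of at least 2 CPM, the Meteor locus with Eomes, and the 3 highest genes of each chromosome that stood apart. Exceptions are stated in the text. Intervals and floors cover counting error only. Tables and figures were made with Python 3.11.15, pandas 2.3.3, numpy 2.4.6, scipy 1.17.1 and matplotlib 3.10.9.

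The alternatives were no block, 2 fits over 12 libraries, limma-voom (limma 3.58.1), DESeq2 1.42.0, RLE scaling, 2 other filters and leaving out each pair. Values outside the stretches and the day 3 values of the stretches were added after the data were seen. On counts simulated for this comparison (14249 genes fitted) the fit with the block recovered 35 of 50 genes changed 1.5-fold, 46 of 50 changed 2-fold and all 49 changed 4-fold, and called 29 of 14050 unchanged genes. Without the block it recovered 2, 20 and 40 and called 0. The simulated levels and spread were taken from the fit with the block, so these counts cannot show whether the block suits the real libraries.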

Additional observations from a re-analysis of the deposited data

Results flagged for a closer look

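For 13 of the 20 genes named for the 10 largest falls and 10 largest rises on day 0, the difference between KO and WT was not the same on the 2 days by a test of the difference itself (edgeR's quasi-likelihood test over 12 libraries, adjusted over 15673 genes, of which 31.2% passed). Values are the log2 fold change on day 3 minus that on day 0, and no cause was tested. These 20 genes were picked for extreme values on day 0, a choice that by itself favours smaller differences on day 3, and its part was not tested. The other 7 did not pass the test between days: T (-0.74), Nkx6-3 (-0.42), Msln (-0.62), Ceacam20 (0.026), Gpa33 (-1.01), Spata31d1b (-0.73) and Gm6522 (0.0061). Standard errors derived from the fold change and the test statistic were not reliable for these differences and are not given. On day 3 alone they were 0.42 for T, 0.76 for Nkx6-3, 0.87 for Msln and 0.60 for Gm6522 on the log2 scale. On day 3 Nkx6-3, Msln and Gm6522 lay below 1 CPM in all libraries of both genotypes. Not passing therefore does not show that the difference stayed the same. Ceacam20 was at 3.05 on day 0 and 3.08 on day 3. No formal outlier test was made in groups of 3 libraries.

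Of the 10 falls, 8 were smaller on day 3. The Gbp genes gave 2.01 for Gbp2 (adjusted p = 0.0038), 2.25 for Gbp2b (adjusted p = 0.0053), 2.38 for Gbp3 (adjusted p = 0.0013) and 3.26 for Gbp4 (adjusted p = 0.00067). On day 3 these 4 still passed with lower values in KO, at -2.03, -2.02, -1.88 and -0.84. Psmb8 gave 2.62 (adjusted p = 0.0071), Slc39a8 2.25 (adjusted p = 0.011) and Actc1 2.25 (adjusted p = 0.027), and they too were lower in KO on day 3. Usp26 gave 3.56 (adjusted p = 6.1e-05). On the 12-library scale its WT level went from 128, 144 and 118.4 CPM on day 0 to 26.9, 13.0 and 15.8 CPM on day 3, whereas KO had 10.54, 7.33 and 5.93 CPM and then 12.8, 12.7 and 12.5 CPM.

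Of the 10 rises, 3 were smaller on day 3 by this test and that of Bmp4 was reversed. Islr2 gave -3.16 (adjusted p = 0.00015), Mras -2.30 (adjusted p = 0.00021) and Rgs22 -1.92 (adjusted p = 0.0012). Mras had 188, 249 and 265 CPM in KO on day 0 and 1.5, 2.44 and 2.91 CPM on day 3, when WT had 1.82, 2.07 and 2.00 CPM. Bmp4 gave -4.06 (adjusted p = 0.0027) and was lower in KO on day 3, with 4.34, 7.89 and 55.1 CPM in WT and 4.85, 4.78 and 5.12 CPM in KO. WT replicate 3 lay far above the other 5 libraries of that day, and the day 3 value was not computed without it.

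Upf3b gave -4.37 (adjusted p = 0.0020). On day 3 it had 1065, 1012 and 1154 counts in WT and 0, 0 and 1 in KO, or 0.0302% of the WT level (95% exact interval 0.000764% to 0.168%, counting error only), so the size of this difference depends on 1 count.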

How the results depend on the processing

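Dropping the replicate block had the greatest effect of the alternatives run on the genes that passed: 2251 in place of 5356, all 2251 among the 5356. Fewer falls exceeded a fold of 2 as well (660 in place of 996), and the test between days was passed by 2002 in place of 4889. With 1 block shared by both days 3201 passed. Leaving out 1 pair gave 3963 to 4213 genes on day 0 (3963 without pair 3) and 2521 to 3655 for the test between days (2996 without pair 1, 2521 without pair 2), with fewer samples in each fit. The other alternatives gave 4011 (DESeq2) to 6012 (no filter), and DESeq2 gave 3704 for the test between days. The 1667 genes over a fold of 2 ranged from 1155 to 1979; 1150 of the 1155 without the block were shared. Of 307 named genes 254 passed: 69 lost this without the block, 64 with the shared block, 5 to 15 without a pair, and 0 to 13 otherwise. No gene that passed did so in the opposite direction under any of these. Genes that did not pass could change sign, as Ifit1 did without pair 3. Genes too low to be tested without a pair, such as Cdx2 and Ifit3 without pair 3, are not among those counted as lost. Of 72 list counts, 43 moved by over 1.5 times without the block, 36 with the shared block, 14 without pair 3 and 13 outside the stretches. At 18386391 to 20616286 reads, genes under 1 CPM in all 6 libraries were not tested.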
